A study of Drosophila melanogaster with 3 samples.

Results

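The regions described here are the candidate binding regions of BtbVII that lie in pericentric heterochromatin or on chromosome 4 of Drosophila melanogaster. A region belonged to them when its summit, the base of highest signal, lay beyond position 22160000 of 2L, beyond 22960000 of 3L, below 4550000 of 3R, beyond 22630000 of X, or anywhere on chromosome 4 (dm6). Of the 30000 regions in the list pooled over the replicates, 273 met the rule, 136 in the pericentric intervals and 137 on chromosome 4. They were set beside the 24187 regions in the rest of the same 4 arms, and 5540 regions of the remaining arm belong to neither. The rule used position only and no measured value. The authors' title for the pooled list names both peaks and background, so a candidate is not by itself a binding site. Of the 273 members, 244 were outside the strong peaks defined below, and values over all members include them.

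The data are chromatin immunoprecipitations with an anti-GFP antibody from a transgenic line that stably expresses BtbVII with eGFP at its C terminus. Whole embryos of both sexes, collected at 0 to 24 h, gave 3 biological replicates that form 1 group, and no control group was analysed here. Such a sample mixes every cell type and a full day of development, and the labels do not say whether the line keeps untagged BtbVII. In such a mixture a weak signal from every cell and a strong one from few cells cannot be told apart. The deposited lists give each region a signal value on the scale of the authors' peak caller, so only ranks within a list were set side by side.

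Pericentric heterochromatin surrounds the centromeres, is rich in satellites and transposable elements, and carries histone H3 methylated at lysine 9 together with HP1. It nevertheless contains working genes, many of which need this environment to be expressed. Chromosome 4, the small dot chromosome, mixes HP1-coated, repeat-rich sequence with active genes along its whole arm, and its genes are also bound by the protein POF. BTB domains join proteins to one another, and several Drosophila BTB proteins, GAGA factor among them, are chromatin proteins that bind GA-rich DNA.

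The sequences below show what the strongest of these summits look like, for the 4 pericentric and 2 chromosome 4 candidates of highest signal and 1 deep candidate. Each is the plus strand of the reference around the summit, with 100 bases on either side where no UTR intervened, a stretch that ends at the UTR for eIF3a, and 29 bases where the summit itself lay in a UTR (Sfxn1-3). Capitals mark the summit base and any run matching 1 of 7 searched motifs.
CG31523 intron, chr3R:4478237-4478437: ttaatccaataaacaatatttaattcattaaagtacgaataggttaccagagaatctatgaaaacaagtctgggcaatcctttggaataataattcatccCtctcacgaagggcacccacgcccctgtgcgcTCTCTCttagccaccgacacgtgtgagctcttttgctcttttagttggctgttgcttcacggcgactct
asRNA:CR45999 upstream, chr3R:4395249-4395449: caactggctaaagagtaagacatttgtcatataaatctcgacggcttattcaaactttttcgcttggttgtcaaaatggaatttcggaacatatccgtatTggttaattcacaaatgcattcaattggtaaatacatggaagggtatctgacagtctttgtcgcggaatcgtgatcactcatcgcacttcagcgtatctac
Sfxn1-3 5′ UTR, chr3R:4378941-4378969: tgacttccaaattgGtagcaacgtgtggg
eIF3a upstream, chr3R:4433896-4433964: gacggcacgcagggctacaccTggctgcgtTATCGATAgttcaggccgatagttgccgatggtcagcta
zfh2 upstream, chr4:497787-497987: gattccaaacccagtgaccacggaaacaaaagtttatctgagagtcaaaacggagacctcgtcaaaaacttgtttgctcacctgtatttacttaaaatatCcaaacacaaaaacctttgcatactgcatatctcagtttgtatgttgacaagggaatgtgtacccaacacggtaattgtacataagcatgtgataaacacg
lncRNA:CR43437 upstream, chr4:424724-424924: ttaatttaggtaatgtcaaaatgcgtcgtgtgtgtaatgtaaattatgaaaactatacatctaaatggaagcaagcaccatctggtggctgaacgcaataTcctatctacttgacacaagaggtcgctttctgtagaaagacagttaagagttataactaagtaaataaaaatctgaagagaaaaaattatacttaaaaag
nvd intron, chr3L:24352749-24352949: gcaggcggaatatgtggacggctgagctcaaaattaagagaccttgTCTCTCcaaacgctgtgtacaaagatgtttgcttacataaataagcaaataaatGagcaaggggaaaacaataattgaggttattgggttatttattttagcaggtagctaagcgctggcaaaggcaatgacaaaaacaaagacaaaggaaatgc
The CG31523 window holds TCTCTC, the other strand of GAGAGA. The eIF3a window holds TATCGATA, the core of the DNA replication-related element (DRE) that the factor DREF recognises at promoters of growth genes. This stretch lies between the starts of eIF3a and CG1074, so the run cannot be given to 1 of them. The windows of asRNA:CR45999, zfh2 and lncRNA:CR43437 hold none of the 7. The Sfxn1-3 window holds CACACACA, outside the 29 bases printed. The nvd window is shown because it is the highest-signal candidate deeper than 500 kb inside an interval, and it was chosen after its value was seen.

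Strong peaks made up 10.6% (7.23 to 14.9) of these regions, a smaller share than along the arms. A strong peak is a region of the deposited optimal set, the list that passed the authors' irreproducible discovery rate threshold, which comprises exactly the 5219 pooled regions of highest signal. Of all pooled regions 17.4% were strong, and of those in the rest of the 4 arms 17.2% (95% interval 16.7 to 17.7). In the pericentric intervals 13 of 136 were strong (9.56%, 5.19 to 15.8), an interval that does not reach the value of the rest. On chromosome 4 the count was 16 of 137 (11.7%, 6.82 to 18.3), and here the interval includes it. By arm, the pericentric share was 12.9% on 3R (12 of 93, 6.85 to 21.5), a range that includes 17.6% in the rest of 3R. On X it was 3.03% (1 of 33, 0.0767 to 15.8), a range below 16.9% in the rest of X. None of 6 on 3L and none of 4 on 2L was strong, too few to place beside the rest. These exact (Clopper-Pearson) intervals cover counting error over regions only, neighbouring regions are not independent, and read depth is unknown. Among the 2609 strong peaks of highest signal the pericentric share was 6.62% (3.07 to 12.2) beside 8.59% in the rest, so with that stricter definition the interval includes the rest.

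Both sets of regions also lay below the rest within each library. The share of pericentric candidates ranked in a library's own top 5219 was 13.9% in replicate 1, 10.8% in replicate 2 and 11.6% in replicate 3, a mean of 12.1% ± 1.61 (SD, n = 3). On chromosome 4 it was 11.5%, 9.82% and 10.6%, a mean of 10.6% ± 0.818 (SD, n = 3), and in the rest of the arms 17.0%, 17.1% and 17.3%. The 3 values of each set lay below all 3 of the rest. The mean difference was -5.02 percentage points ± 1.70 (SD) for the pericentric intervals and -6.53 ± 0.885 for chromosome 4, each with an exact two-sided sign-flip permutation p of 0.25, the smallest that 3 libraries allow.

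**Figure D1:**
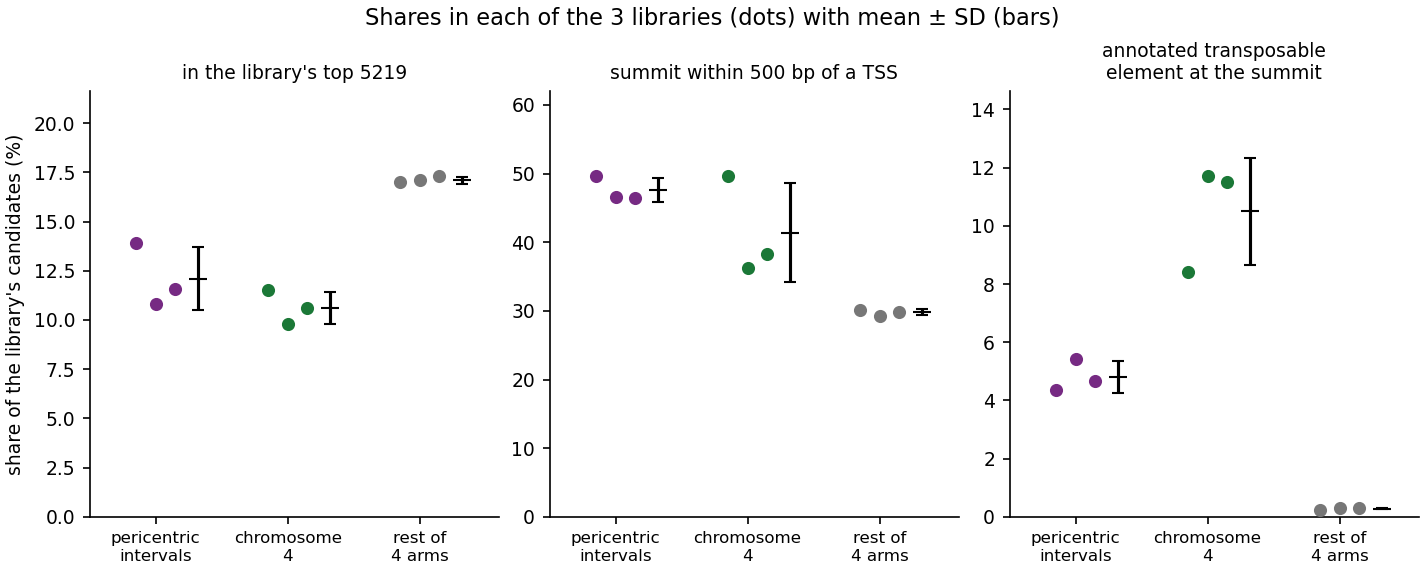
Each dot is 1 library (replicates 1, 2 and 3 from left to right) and the bars are the mean ± SD over the 3 libraries; the vertical axis is the share of a library's candidates, in percent, in each group. The left panel shows the rest of the arms at 17.0% to 17.3% in the top 5219, above every pericentric (10.8% to 13.9%) and chromosome 4 value (9.82% to 11.5%), and the other panels show summits near a TSS and in an annotated transposable element, both higher in the members.

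Most strong members had support from all 3 replicates. Of the 13 strong pericentric peaks 9 lay in the top regions of all 3 replicates, 2 in those of 2 and 2 in that of 1. Of the 16 on chromosome 4 the counts were 9, 3 and 4. Strong and supported by all 3 replicates were thus 6.62% (3.07 to 12.2) of pericentric and 6.57% (3.05 to 12.1) of chromosome 4 candidates. Both intervals include the 10.3% of the whole list. Among strong peaks alone, complete support held for 69.2% (38.6 to 90.9) in the pericentric intervals, 56.2% (29.9 to 80.2) on chromosome 4 and 58.8% (57.3 to 60.3) in the rest. The candidates overlap one another in places, and merging them left 107 separate pericentric stretches and 106 on chromosome 4.

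**Figure D2:**
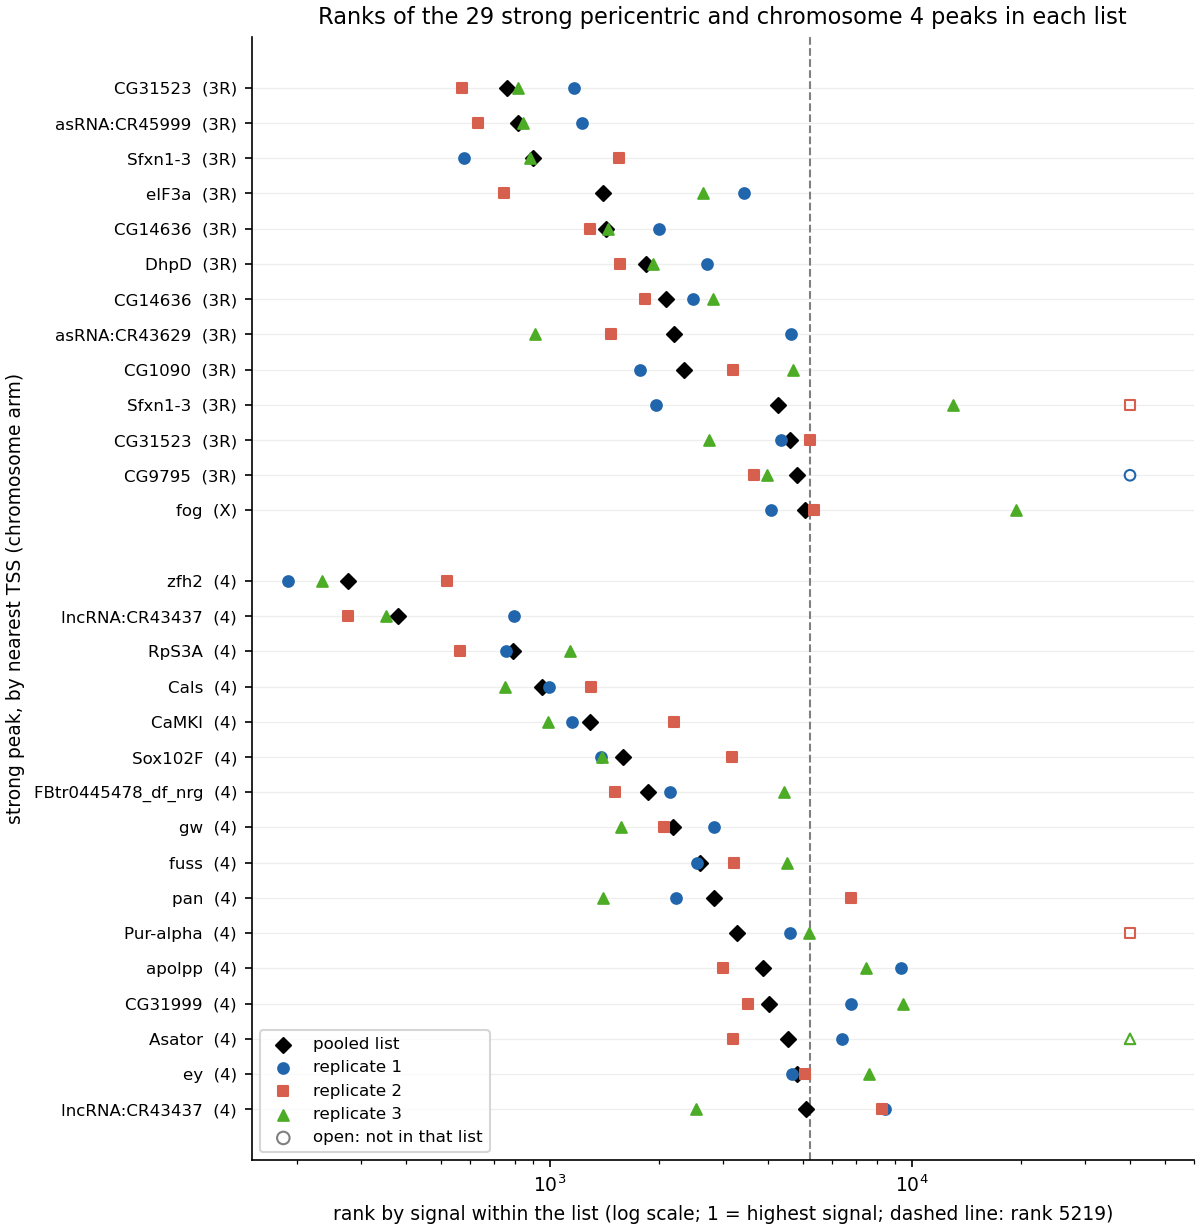
Rank by signal (horizontal axis, log scale, 1 is the highest signal) of each of the 29 strong members in the pooled list and the 3 replicates, with the nearest TSS on the vertical axis; open symbols stand for summits in no region of that replicate, and the dashed line is rank 5219. The pericentric peaks (upper block) start at pooled rank 761 and those of chromosome 4 (lower block) at 276, and members of lower signal spread more widely across replicates.

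The pericentric candidates lay at the edge of the intervals. Of the 136, 132 were within 500 kb of the border with the arm, and all 13 strong peaks were among these. The remaining 9.97 Mb of pericentric sequence, deeper than 500 kb, held 4 candidates and no strong peak, or 0.401 candidates per Mb. The outer 500 kb of the 4 arms held 66.0 per Mb, chromosome 4 102 per Mb and the rest of the arms 254 per Mb. In the replicate lists 3, 11 and 3 candidates lay deeper than 500 kb, and none of these was in a library's top 5219.

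**Figure D3:**
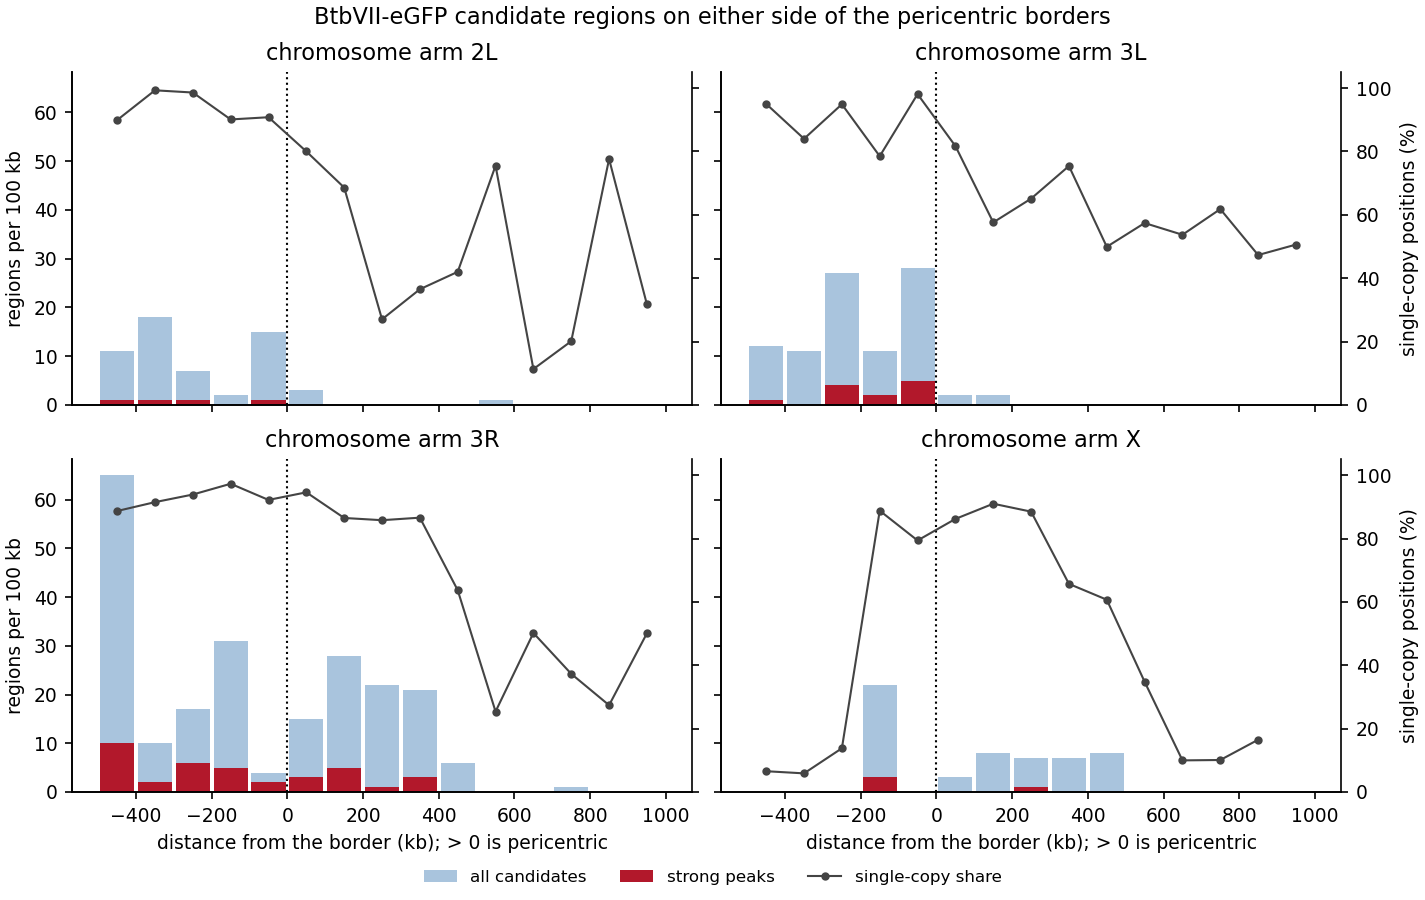
Candidates (light bars) and strong peaks (red bars) per 100 kb, left axis, and the share of positions that start a single-copy 31-mer (line, right axis), by distance in kb from the border of each pericentric interval, positive on the pericentric side. On 3R the candidates continue inward for 400 kb at 15 to 28 per 100 kb, while 2L and 3L hold 4 or fewer in the first 500 kb.

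Single-copy sequence and genes moved with this pattern. A position was called single-copy when the 31-mer starting there occurred once in the reference on either strand, since reads from repeated positions may not be placed uniquely. Single-copy positions made up 94.3% of the rest of the arms, 83.1% of chromosome 4, 69.6% of the outer 500 kb and 34.1% of the deeper sequence. Per single-copy Mb the candidates numbered 269, 122, 94.8 and 1.18. Protein-coding genes numbered 114 per Mb in the rest, 59.3 on chromosome 4, 51.0 in the outer 500 kb and 4.62 deeper. The part of read placement or of gene density in the candidate density was not tested.

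The 4 arms differed. The interval of 3R held 93 candidates and 12 strong peaks, that of X 33 and 1, that of 3L 6 and none, and that of 2L 4 and none. In the first 400 kb of the 3R interval there were 86 candidates and all 12 strong peaks, at 243 candidates per single-copy Mb, beside 261 in the rest of 3R. This length ends where the counts fell, to 6 in the next 100 kb, so it is not independent of them. Over the first 500 kb the value was 220. The first 400 kb was 88.4% single-copy and held 56 protein-coding genes, 140 per Mb beside 122 in the rest of 3R. Annotated transposable elements made up 16.4% of it, beside 3.22% in the rest of 3R. The interval is defined by position, and its chromatin state was not measured here. The outer 500 kb of 3L and 2L held 10 and 11 genes and were 65.9% and 50.8% single-copy. Among the libraries the 3R interval held 80, 84 and 91 candidates, with 15, 14 and 14 in the library's top. The 2L interval held 1, 12 and 6 candidates, and the tops of replicates 2 and 3 each included 1 region there, although no strong pooled peak was found.

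The candidates nearest the borders differed by arm as well. On 3R the first candidate inside was 5.23 kb in, in an intron of CG34357 and 3418 bp from the nearest TSS, that of Mur82C, with a signal of 66.5, and the nearest outside was 91.8 kb away, a strong peak 63 bp from the TSS of CG9775 with a signal of 340. On X the first inside was 1.86 kb in, at Cda4, with 122, and the nearest outside was in the second 100 kb beyond the border, at S6kII, with 106. On 3L they were nrm, 38.4 kb in, with 170, and Mes2, 11.6 kb out, with 52.8. On 2L they were CG3635, 12.9 kb in, with 64.8, and CG42748, 5.99 kb out, with a candidate at pooled rank 9741.

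The strongest pericentric peak lay in an intron of CG31523, a predicted fatty acid elongase gene, 512 bp downstream of a transcription start site (TSS; 3R, 4478218 to 4478385). Its signal was 505, it ranked 761 in the pooled list, and it ranked 1168, 570 and 816 in replicates 1, 2 and 3. The next, 200 bp upstream of the antisense RNA gene asRNA:CR45999 (3R, 4395230 to 4395396), scored 489 and was ranked 1226, 632 and 842. Every replicate placed both well inside its top 5219. The third lay in the 5′ UTR of Sfxn1-3, 30 bp downstream of its TSS (3R, 4378730 to 4379179). Sfxn1-3 encodes a sideroflexin, a family whose human member SFXN1 carries serine into mitochondria. This peak scored 463, and the replicates ranked it 580, 1553 and 881.

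The fourth lay 22 bp upstream of eIF3a, a subunit of translation initiation factor 3 (3R, 4433692 to 4434141), scoring 365. The start of CG1074 lies on the other side of this summit, so the gene it belongs to cannot be told apart. The ranks of this peak, 3426, 746 and 2643, were less even, with replicate 2 far above the others. The next peak, in an intron of aux, the auxilin that helps uncoat clathrin vesicles (3R, 4215671 to 4216120), scored 362 and was ranked 2003, 1287 and 1444. It was the one strong member whose summit lay in an annotated transposable element, a 1360 copy, and its window was 97.7% single-copy, the lowest of the 29. A further peak of 291 lay in sequence shared by aux and CG14636 (3R, 4214038 to 4214487), with ranks of 2491, 1827 and 2822.

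The other strong peaks of 3R lay within 500 bp of a TSS. One was 121 bp upstream of DhpD, the dihydropterin deaminase of eye pigment synthesis (4229134 to 4229583), scoring 315 and ranked 2711, 1559 and 1928. One of 284 lay in a non-coding exon of asRNA:CR43629 inside CG31522, a second elongase gene (4453364 to 4453813), and its ranks ran from 910 in replicate 3 to 4646 in replicate 1. The peak at CG1090, 62 bp upstream (4359596 to 4360045), scored 274 and was ranked 1773, 3203 and 4704. Support became partial below this level. A second peak at Sfxn1-3 (signal 195) ranked 1957 in replicate 1 and 13017 in replicate 3 and lay in no region of replicate 2. CG9795 (181) lay in no region of replicate 1, and a second CG31523 peak at its start (186) ranked 4343, 5241 and 2750.

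The single strong peak outside 3R lay in an intron of fog on X (22837342 to 22837791), in sequence that CG42346 also covers. The fog product is the secreted ligand that triggers apical constriction at gastrulation. The signal was 175 and the pooled rank 5065, near the end of the strong set. It ranked 4082 and 5376 in replicates 1 and 2 and 19331 in replicate 3, so 1 library held it in its top regions. The best candidate of the 3L interval, in the 5′ UTR of nrm 28 bp from a TSS (22998175 to 22998624), fell just short of the set with a signal of 170 and a pooled rank of 5363. RpL10, a ribosomal protein gene 135.4 kb into the same interval, carried a candidate of 131 in an intron 63 bp from its start.

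The 4 deep candidates were weak. The first was the nvd intron summit printed above (3L, 24352624 to 24353073), 1393 kb inside and 27983 bp from a TSS, with a signal of 97.6 and a pooled rank of 12528. The nvd gene, neverland, encodes the oxygenase that begins ecdysone synthesis from cholesterol. The summit ranked 13745, 13530 and 24857 in the replicates, and 87.1% of its window was single-copy. The second lay in the 5′ UTR of RpL15, 8 bp from its TSS and 4307 kb inside (3L, 27267039 to 27267488), with a signal of 89.3, and only replicate 2 had a region there, at rank 6121. The third, in intergenic sequence 760 kb into 3R, had a signal of 85.5, and the last, 189 bp upstream of CG40006 and 596.5 kb into 2L, had 56.3.

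Chromosome 4 held the strongest peak of all 273 regions. It lay in intergenic sequence 3923 bp upstream of zfh2, which encodes a zinc finger homeodomain transcription factor (497761 to 498036). Its signal was 808 and its pooled rank 276, and the replicates ranked it 189, 519 and 235. The second lay 1243 bp upstream of lncRNA:CR43437 (424702 to 424924), with a signal of 700, a pooled rank of 380 and replicate ranks of 797, 276 and 353. Neither summit was within 500 bp of an annotated start, and every library placed both among its upper 800 regions.

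Peaks at gene starts came next. The peak in the 5′ UTR of the ribosomal protein gene RpS3A, 19 bp from its TSS (66963 to 67412), scored 497 and was ranked 754, 566 and 1137. That in the 5′ UTR of CaMKI, calcium/calmodulin-dependent kinase I (445949 to 446398), scored 381 and was ranked 1147, 2194 and 990. Between them came a peak of 448 in 3′ UTR sequence where Cals, a calsyntenin gene, and sv, a Pax2 family gene, overlap (1113022 to 1113471). Its ranks were 994, 1302 and 752. It lay 9718 bp from the nearest TSS, and the gene it belongs to cannot be told apart.

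Several of the remaining strong peaks lay near regulators. Sox102F, a SoxD transcription factor, had a peak of 341 in an intron 243 bp upstream of a TSS (807365 to 807814), with ranks of 1384, 3190 and 1392. A peak of 258 lay 4490 bp upstream of fuss, a Ski/Sno family gene (982754 to 983203), and ranked 2541, 3223 and 4521. The peak at pan, the TCF factor of Wnt signalling, lay 146 bp upstream of a TSS with a signal of 247 (69282 to 69731). It ranked 2227 and 1401 in replicates 1 and 3 but 6783 in replicate 2, outside that library's top. The peak at gw, the GW182 protein of microRNA silencing, scored 285 and was ranked 2846, 2062 and 1568 (659868 to 660317). Another of 313 lay in intergenic sequence (404279 to 404728), and 1 of 228 in an intron of Pur-alpha (558516 to 558965) was in no region of replicate 2.

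The rest of the strong chromosome 4 peaks had signals of 175 to 207. They lay at the divergent start of apolpp, a lipoprotein gene, inside Zyx, the zyxin gene (207), at CG31999 (202), 523 bp upstream of the kinase gene Asator (187), 752 bp upstream of the Pax6 gene ey (181), and 9493 bp from lncRNA:CR43437 (175). All but the ey peak, which 2 replicates supported, were in the top regions of 1 replicate. The candidates were spread along the chromosome unevenly. The fifth 100 kb from the left end held 26 candidates and 6 strong peaks, those nearest to zfh2, Asator, CaMKI, lncRNA:CR43437 (2 peaks) and FBtr0445478_df_nrg. No other 100 kb held more than 17 candidates or more than 2 strong peaks, and the last 48131 bp, 8.35% single-copy, held none.

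Summits lay near transcription start sites more often than on the arms. Within 500 bp of a TSS were 72 of 136 pericentric summits (52.9%, 44.2 to 61.6) and 68 of 137 on chromosome 4 (49.6%, 41.0 to 58.3), against 29.7% (29.2 to 30.3) in the rest. Of the 72, 55 were on 3R (59.1%, 48.5 to 69.2), above 30.6% in the rest of 3R. On X there were 12 of 33 (36.4%, 20.4 to 54.9), a range that includes 30.2% in the rest of X. The counts were 4 of 6 on 3L and 1 of 4 on 2L. By library the pericentric share was 49.6%, 46.6% and 46.5%, and that of chromosome 4 was 49.6%, 36.2% and 38.3%, against 30.1%, 29.3% and 29.9%. Both were higher in 3 of 3 libraries (mean differences of 17.8 ± 1.49 and 11.6 ± 6.90 percentage points, exact sign-flip p = 0.25 for each, the smallest possible). Summits farther than 500 bp from a TSS fell in introns for 33.1% of pericentric and 24.1% of chromosome 4 candidates, against 45.6% in the rest. Intergenic sequence took 5.15%, 20.4% and 18.4%.

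**Figure D4:**
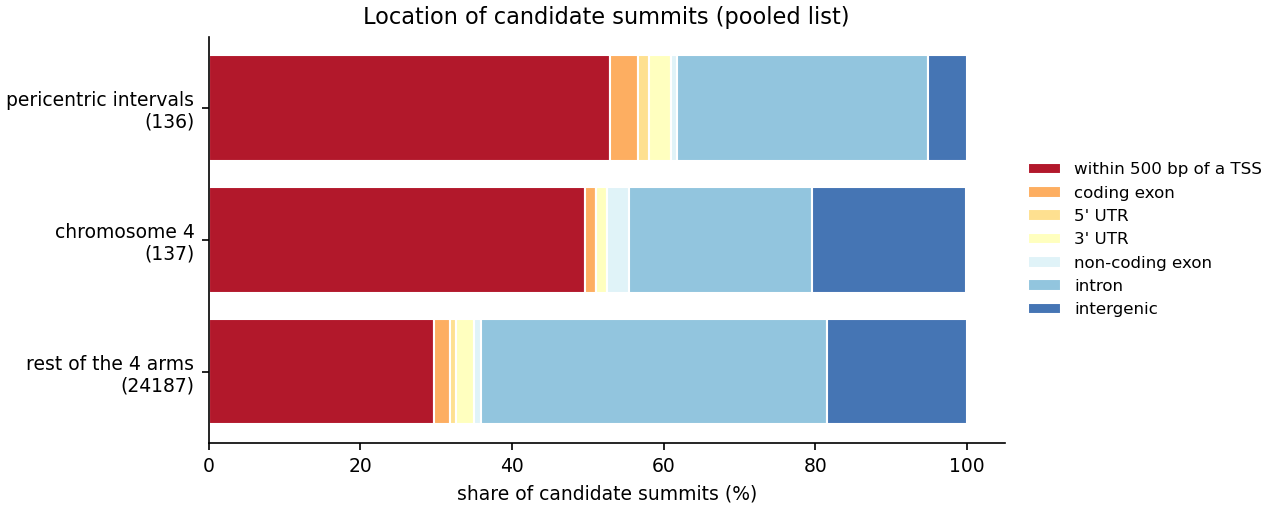
Share of candidate summits, in percent, within 500 bp of a TSS or otherwise by annotation, for the 136 pericentric, 137 chromosome 4 and 24187 other regions of the pooled list. The promoter share is 52.9% and 49.6% in the members and 29.7% in the rest, and the intron share is lower in the members.

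Nearness to a TSS did not come with strength as often as it did along the arms. Of promoter-proximal candidates 9 of 72 (12.5%, 5.88 to 22.4) were strong in the pericentric intervals and 7 of 68 (10.3%, 4.24 to 20.1) on chromosome 4, beside 27.8% (26.8 to 28.9) of those in the rest. Both intervals lie below that value. By arm, the pericentric share was 16.4% on 3R (9 of 55, 7.77 to 28.8), a range that includes 28.2% in the rest of 3R. On X it was 0 of 12 (up to 26.5%), a range that includes 24.8% in the rest of X. None of 4 on 3L and 0 of 1 on 2L was strong. Of summits farther away 4 of 64 (6.25%, 1.73 to 15.2) and 9 of 69 (6.14 to 23.3) were strong, beside 12.7% in the rest, and these intervals include the value of the rest.

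Counted by gene, every pericentric gene with a strong peak at its start lay in the outer 500 kb. This follows from the place of the 13 strong peaks, all within 500 kb of a border, and is not a separate result. Of the 148 protein-coding genes of the pericentric intervals 52 had a candidate within 1000 bp of a TSS (35.1%) and 10 a strong peak (6.76%, 3.29 to 12.1), against 53.1% and 22.5% of genes in the rest of the arms. Among the 102 genes of the outer 500 kb, 50 had a candidate and 10 a strong peak. Among the 46 deeper genes, 2 had a candidate and none a strong peak, which allows a share of up to 7.71% by the exact interval. On chromosome 4, 40 of 80 genes had a candidate and 13 a strong peak (16.2%, 8.95 to 26.2).

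**Figure D5:**
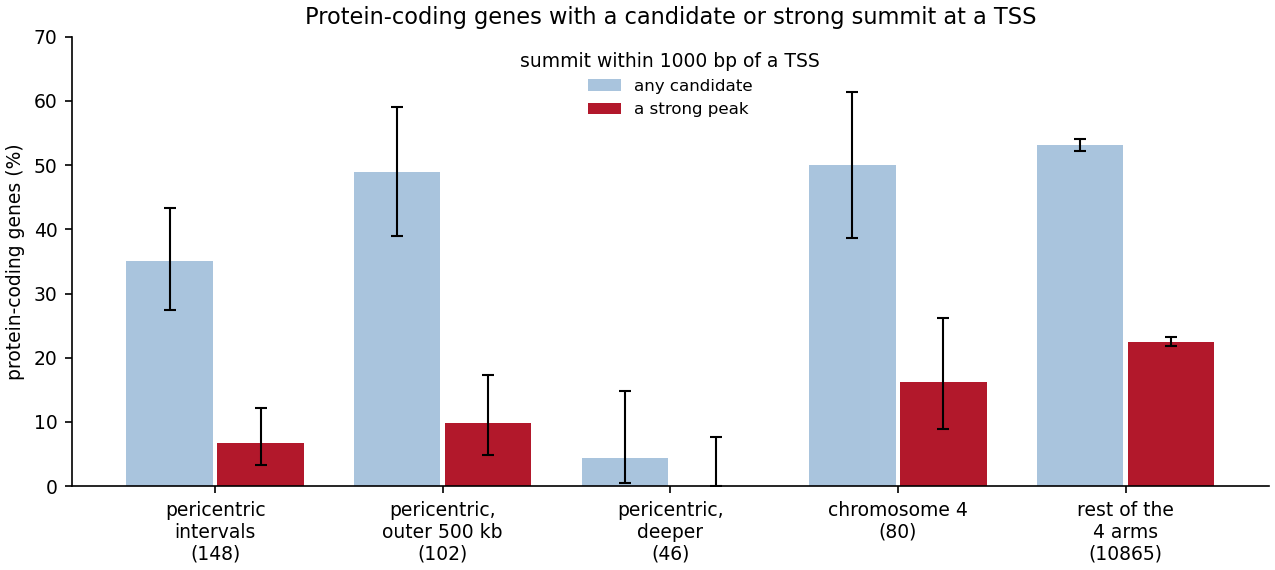
Share of protein-coding genes, in percent, with any candidate (light bars) or a strong peak (red bars) within 1000 bp of a TSS, with exact 95% intervals over genes and the number of genes in brackets. Genes of the outer 500 kb (49.0% with a candidate) and of chromosome 4 (40 of 80) stand near the rest (53.1%), while the 46 deeper genes stand at 4.35%.

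Of 19 well-studied genes of pericentric heterochromatin 18 lay in the intervals. Of these, 5 had a candidate within 1000 bp of a TSS or in the gene (27.8%), beside 55 of all 148 pericentric genes by the same rule (37.2%). Only 1, fog, had a strong peak (5.56%, beside 8.78% of all pericentric genes and 26.1% of genes in the rest of the arms). Those without any candidate included lt, a vesicle trafficking gene and the classic example of a gene that needs heterochromatin, cta, the G protein that acts downstream of fog, the ribosomal protein gene RpL5, the Argonaute gene AGO3, the histone methyltransferase gene Set1, the cohesin subunit gene vtd and Parp1. Besides fog, nrm (170) and su(f) (118), a subunit of mRNA 3′ end processing, had candidates, and so did nvd and RpL15 at the signals given above. Haspin lay outside the intervals.

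On chromosome 4 the lists were read in the same way, beside 15 of all 80 genes with a strong peak (18.8%). Transcription factor and chromatin genes had 4 of 12, ey, pan, Sox102F and sv. The sv call rests on the 3′ UTR peak that Cals shares, 14722 bp from the nearest TSS of sv. The Hedgehog effector gene ci had a candidate of 99.7 and zfh2 one of 144 within the gene or its start, its strong peak being farther away, while toy, the other Pax6 gene, and pho, a Polycomb group gene, had none. Signalling and axon guidance genes had 2 of 10, myo and Zyx, and the semaphorin receptor genes PlexA and PlexB had candidates of 167 and 127. The list called housekeeping had 5 of 12, RpS3A, gw, Pur-alpha, Tdg and apolpp, where Pur-alpha and Tdg share 1 peak. The list name is loose, since apolpp is a lipoprotein gene. The ey and myo calls also rest on 1 peak, as do those of Zyx and apolpp, so these counts are not independent between lists. None of 7 synaptic and muscle genes had a strong peak, and 2 had candidates, unc-13 at 63.1 and Syt7 at 62.4.

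Few summits lay in annotated transposable elements, but more than along the arms. The number was 7 of 136 in the pericentric intervals (5.15%, 2.09 to 10.3) and 13 of 137 on chromosome 4 (9.49%, 5.15 to 15.7), against 0.236% (0.179 to 0.305) in the rest. Annotated elements made up 14.9%, 24.8% and 4.06% of these sequences. In the outer 500 kb, which held 132 of the 136 pericentric candidates, they made up 33.2%, and in the deeper sequence 11.2%. The pericentric summits fell in 3 INE-1, 2 1360, 1 Cr1a and 1 transib2 copies, and those on chromosome 4 in 8 INE-1, 4 1360 and 1 S copies. INE-1, an old and short element, and 1360, a DNA transposon, are common in heterochromatin and on chromosome 4. By library the share was 4.80% ± 0.545, 10.5% ± 1.83 and 0.281% ± 0.0312 (SD, n = 3), higher than the rest in 3 of 3 libraries for both (exact sign-flip p = 0.25, the smallest possible). Outside the aux intron none of these summits was strong.

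The windows themselves were mostly unique sequence. The window from 100 bp before to 100 bp after the summit was at least 90% single-copy for 132 of 136 pericentric and 127 of 137 chromosome 4 candidates (97.1% and 92.7%), against 99.5% in the rest, and 28 of the 29 strong members had fully single-copy windows. Median GC content was 42.0% in the pericentric windows and 34.8% on chromosome 4, against 39.3% in the rest. By library chromosome 4 was lower in 3 of 3 (34.3%, 35.3% and 33.3%, against 39.8% in each), while the pericentric median was above the rest in 2 libraries and below it in replicate 2 (43.3%, 38.8% and 41.8%).

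In this window the exact interval of each of the 14 motif shares (7 motifs, both sets of members) included the share in the rest. Motifs were searched on both strands. GAGAGA was in 9.56% (5.19 to 15.8) of pericentric and 9.49% (5.15 to 15.7) of chromosome 4 windows, beside 10.7% of windows in the rest. Among strong peaks it was in 1 of 13 pericentric windows, the CG31523 intron printed above, and in 0 of 16 on chromosome 4 (up to 20.6% by the exact interval), against 583 of 4156 in the rest. TATCGATA was in 0.735% and 2.92% (0.801 to 7.31), beside 1.23%, and AATATAATA, a stretch of the AATAT satellite, in 0.735% and 3.65%, beside 1.74%. GATAGATA was in 1.47% and 0.73%, beside 0.922%, AAGAGAAG, from the AAGAG satellite, in 1.47% and 0%, beside 0.889%, and CACACACA in 5.88% and 2.92%, beside 6.26%. AAAAAAAA was in 8.82% (4.64 to 14.9) and 13.1%, beside 14.4%. With 250 bases on either side of the summit, 4 of 14 intervals did not include the rest. TATCGATA was then in 12 of 137 chromosome 4 windows (8.76%, 4.61 to 14.8), above 2.69% in the rest, and CACACACA in 9 (6.57%, 3.05 to 12.1), below 15.8%. AAAAAAAA was in 19.9% (13.5 to 27.6) of pericentric and 22.6% (15.9 to 30.6) of chromosome 4 windows, below 31.1%. With 50 bases 1 of 14 did not include it, AAAAAAAA on chromosome 4 at 2.19% (0.454 to 6.27) beside 7.24%. By library, in the window of 100 bases, TATCGATA on chromosome 4 was in 3.82%, 3.07% and 3.52%, against 1.05%, 1.24% and 1.15% in the rest. It was higher in 3 of 3 libraries, by 2.32 ± 0.473 percentage points (SD, n = 3, exact sign-flip p = 0.25, the smallest possible). In the pericentric intervals it was also higher in 3 of 3, by 1.14 ± 0.64 percentage points, although the pooled share was below the rest. CACACACA and AAAAAAAA were lower than the rest in 3 of 3 libraries in both sets of members. A match describes letters in a window and does not show binding by any factor.

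The number of candidates on chromosome 4 differed between libraries more than that in the intervals. Replicate 1 had 131, replicate 2 had 163 and replicate 3 had 227, with 15, 16 and 24 in the library's top regions, while the pericentric counts were 115, 148 and 129. Every list holds exactly 30000 regions, so these counts describe how a library's fixed number was shared out. The median signal of all pooled candidates was 78.9 in the intervals and 86.9 on chromosome 4, beside 85.9 in the rest. Every pooled region lay on 1 of the 6 arms, so unplaced scaffolds and the Y chromosome contributed none.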

How the data were processed

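Region lists in narrowPeak format were deposited by the authors for each of the 3 replicates, for the pooled replicates and for the optimal set. Per the labels the builds are dm6 and dm3, and per the deposited README files each replicate or pooled list derives from its replicates' alignments and 1 further file of unstated type. The sources used here do not name the aligner, peak caller, filters or threshold. The signal value deposited by the authors ranked the regions within a list (lowest 52.7 in the pooled list, 172.4 among strong peaks). The summit is the start plus the deposited offset.

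Regions were grouped by summit and annotated with Ensembl genes (annotation release 115), whose transposable elements were kept apart, and with the Release 6 RefSeq sequence. A replicate supported a strong peak when the summit lay in 1 of its own 5219 regions of highest signal. Shares have exact 95% intervals, and libraries were compared by exact sign-flip permutation. Scripts in Python 3.11.15 with numpy 2.4.6, pandas 2.3.3 and scipy 1.17.1, tested on simulated data, computed every value. Members, gene lists and motifs were chosen with earlier results of these data known. The genes named are the 12 pericentric candidates of highest signal, every strong chromosome 4 peak and all genes of 5 lists; RpL10, the border candidates, the deep candidates and the strong peak of lowest pericentric signal were named after their values were seen. The alternatives were other borders, windows, k-mers, distances, definitions of a strong peak and the dm3 lists.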

Additional observations from a re-analysis of the deposited data

Results flagged for a closer look

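On dm3, whose assembly keeps part of the pericentric sequence as separate contigs, the pooled list held 7 candidates on the heterochromatic contigs of 2L, 3L, 3R and X, 6 of them on that of X and 1 on that of 3L. The replicate 2 list held 13 there and the replicate 3 list 4. Replicate 1 held 3, which does not exceed the floor of 3 regions set for flagging a list. None of the 7 was in the optimal set on dm3, which had 4373 regions. They lie in lists that the comparisons above do not use, and their sequence was not analysed here.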

How the results depend on the processing

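The strong share of pericentric candidates (9.56%) stayed below the rest in every setting tried. It was 13.3% with borders 500 kb towards the telomere and 6.62% (rest 8.59%) for the strong peaks of highest signal. For regions in the tops of all 3 replicates it was 6.62% (rest 11.0%). On the dm3 lists (7 candidates) and with borders 500 kb towards the centromere (4 candidates) it was 0.0%. The dm3 group holds only the heterochromatic contigs, with 0 candidates on that of 3R, so it is not the same sequence as the dm6 intervals. Borders moved inward leave out the outer 500 kb, which held all 13 strong peaks, so that 0.0% was fixed beforehand. With each replicate left out, candidates were counted, strong or not, when they lay in the tops of both remaining replicates. They made up 6.62% to 8.82% in the pericentric intervals and 8.03% to 8.76% on chromosome 4. Chromosome 4 (11.7%) stood at 6.57%, 7.3%, 12.6% (single-copy windows, rest 17.2%) and 10.5% (dm3, rest 14.3%) in the other settings, again below the rest. Pericentric density (11.4 per Mb) was 0.401 and 30.6 with borders moved inward and outward and 28.4 per single-copy Mb, beside 250, 256 and 269 in the rest. The share near a TSS stayed above the rest. In the pericentric intervals it was 40.4% within 250 bp, 64.7% within 1000 bp, 47.1% for protein-coding starts, and 50% and 37.2% with borders moved inward and outward. On chromosome 4 it was 36.5% and 62.0% at the same distances. The pericentric GC median turned to 37.6%, below the rest, with borders moved inward. GAGAGA shares were 2.94% and 21.3% (pericentric) and 4.38% and 21.9% (chromosome 4) in windows of 50 and 250 bp on either side, and 25%, above the rest, in the 4 windows left with borders moved inward. Other motifs changed side of the rest. In pericentric windows these were AAGAGAAG (0.0%) and GATAGATA (0.0%) with borders moved inward, GATAGATA (0.0%) and TATCGATA (0.735%) in the shorter window, AATATAATA (4.41%) and TATCGATA (5.15%) in the longer, and CACACACA (6.56%) with borders moved outward. On chromosome 4 they were AATATAATA and GATAGATA (0.73% each) in the shorter window and GATAGATA (3.65%) in the longer. For moved borders and windows the number of candidates or bases changes by construction, and otherwise the cause was not tested. The pooled list cannot be rebuilt without a replicate, so other results have no leave-one-out value. With 1 group there are no groups to pair by replicate number, and members were compared with the rest within each library.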
